A study of Mus musculus with 2 samples.

Results

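Mir132, Mir212, Mir320, Mir455 and Mir202 are 5 of the 2202 miRNA genes counted in the adrenal gland of young mice. They were taken by gene symbol in GENCODE M21, by a rule that names genes linked in published work to steroid hormone synthesis or to corticotropin (ACTH) and sets no condition on their counts. MicroRNA-seq, which sequences the small RNA of a sample, was run on adrenal glands of male B6CASTF1/J mice, an F1 hybrid, aged 14 days. The labels name no treatment and no engineered allele. There is 1 group of 2 libraries, biological replicates 2 and 1, so no condition could be compared, and the question was at what level the gland holds these miRNAs and how far both libraries differ. The label of each biosample names 3 males, and both biosamples carry 1 donor record, so pooling of animals within a library is not known here. The p-values given set a difference against counting error alone, with reads taken as independent, and do not measure the spread between animals.

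The adrenal cortex makes glucocorticoids and mineralocorticoids from cholesterol, and the medulla at its centre holds chromaffin cells, which release catecholamines. ACTH from the pituitary acts on cortical cells through cyclic AMP, protein kinase A and the transcription factor CREB. Cholesterol then enters the cell in part through the lipoprotein receptor SR-BI and reaches the mitochondria through the transport protein StAR. A miRNA is cut from a hairpin precursor and lowers the output of messenger RNAs that pair with its seed, the stretch from base 2 to base 8. Transcription of the Mir132 and Mir212 genes is driven by CREB in neurons, and both miRNAs rise with ACTH in the rat adrenal. In rodent steroid-making cells miR-132 has been reported to lower StAR, and miR-455, with miR-125a, to lower SR-BI. miR-320 has been tied to estradiol output of mouse granulosa cells, and miR-202 is best known from the gonads.

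The 2 members with a common seed are shown first, since their levels are compared as a pair further on. RefSeq (build GRCm38.p6) holds 8 mature miRNAs of 4 of the 5 genes, 21 to 23 bases long. They are printed 5′ to 3′ with the seed in capitals.
mmu-miR-132-3p: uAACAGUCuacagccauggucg
mmu-miR-212-3p: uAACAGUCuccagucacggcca
mmu-miR-132-5p: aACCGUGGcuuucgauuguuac
mmu-miR-212-5p: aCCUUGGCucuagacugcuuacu
The 3p miRNAs of Mir132 and Mir212 have the same seed, and no other mature mouse miRNA in the table has it. Counted from 1 at the 5′ end, they are alike at 17 of 22 positions and differ by A10C, C14U, U17C, U20C and G22A, with the base of miR-132-3p first. The 5p miRNAs differ in their seeds and share them with no other entry.

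The seeds of Mir455 and Mir202 differ from that of the pair, and the next lines show them beside let-7g, a regulator of developmental timing whose start resembles that of miR-202-3p.
mmu-miR-455-3p: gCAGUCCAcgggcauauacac
mmu-miR-455-5p: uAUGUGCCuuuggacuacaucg
mmu-miR-202-3p: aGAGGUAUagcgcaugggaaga
mmu-miR-202-5p: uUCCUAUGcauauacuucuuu
mmu-let-7g-5p: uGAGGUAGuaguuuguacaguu
Over its first 8 bases miR-202-3p differs from let-7g by U1A and G8U, with the base of let-7g first. Bases 2 to 7 of miR-202-3p are therefore those of let-7, and 12 other mature miRNAs of the table have them, whereas its full seed is shared with mmu-let-7j alone. The seed of miR-455-5p is shared with mmu-miR-5129-3p.

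Mir212 (ENSMUSG00000065590.1) and Mir132 (ENSMUSG00000065537.2) lie on chromosome 11 of mm10, on the plus strand, from 75173388 to 75173478 and from 75173682 to 75173747, with 203 bases between the hairpins. Both lie in an intron of 1700016P03Rik, a non-coding transcript of the same strand. The hairpins follow, with the 3p miRNA in capitals.
Mir212 hairpin: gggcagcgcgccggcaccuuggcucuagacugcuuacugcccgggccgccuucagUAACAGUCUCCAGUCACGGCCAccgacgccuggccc
Mir132 hairpin: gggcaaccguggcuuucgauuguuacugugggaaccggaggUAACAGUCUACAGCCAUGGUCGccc
Mir320 (ENSMUSG00000065528.1) lies on chromosome 14 from 70443510 to 70443591 on the plus strand, 62 bases from Polr3d, a subunit gene of RNA polymerase III on the opposite strand. Mir455 (ENSMUSG00000070102.1) lies on chromosome 4 from 63256851 to 63256932, on the plus strand, in an intron of the collagen gene Col27a1. Mir202 (ENSMUSG00000065502.1) lies on chromosome 7 from 139957689 to 139957760, on the minus strand, in an exon of the non-coding Gm2044 and opposite an intron of Gm16201.

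**Figure D1:**
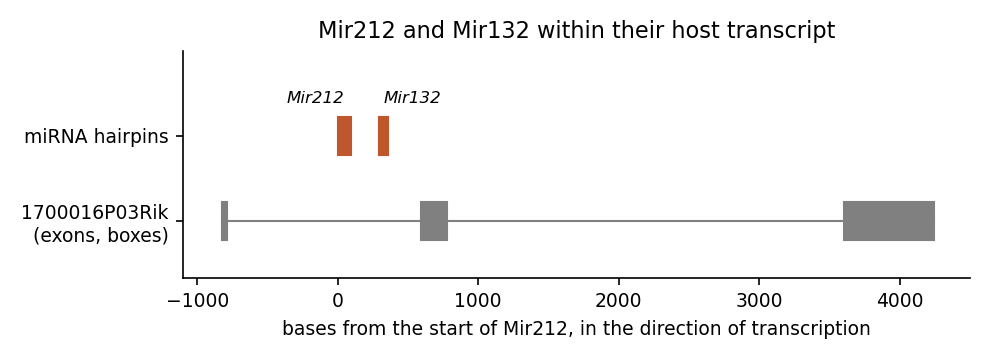
The x axis gives bases from the start of Mir212 in the direction of transcription, orange boxes are the 2 hairpins and grey boxes the exons of 1700016P03Rik joined by its introns. Both hairpins lie in the intron between the first exon and the next, with 203 bases between them.

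The libraries held 3464837 counts on the strand of a miRNA gene in replicate 2 and 3024662 in replicate 1, so at counts scaled to a miRNA total of 1000000 (CPM) 1 count was 0.289 CPM in replicate 2 and 0.331 in replicate 1. They differed in markers of other cell types. Mir122, the main miRNA of hepatocytes, made up 4.95% of the counts of replicate 2 and 0.379% of those of replicate 1. Mir126a of endothelium took 9.47% in replicate 2 and 15.6% in replicate 1, the red cell markers Mir451a and Mir144 together 1.92% and 4.39%, and the smooth muscle markers Mir143 and Mir145a 4.46% and 5.24%. The white cell markers Mir142 and Mir223 summed to 915 CPM in replicate 2 and 2254 CPM in replicate 1, Mir142 being lower and Mir223 higher in replicate 2. All 4 chromaffin cell markers (Mir375, Mir7-1, Mir7-2 and Mir7b) were present, at 34282 CPM in replicate 2 and 31136 in replicate 1. None of the 6 neuronal markers of the Mir124a and Mir9 genes exceeded the level of 3 counts in either library. Each of these 6 is a copy among several of a miRNA gene, and reads with several mapping places were not assigned. Their low counts therefore do not show that neuronal miRNA was absent. The lists hold no miRNA that defines the cortex, so cortical cells were not checked.

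All 5 members were detected, which here means 2 CPM or more in both libraries, as were 364 of all 2202 miRNA genes (16.5%). Together they had 2839 CPM in replicate 2 and 3881 CPM in replicate 1, or 0.284% and 0.388% of miRNA counts. Mir320 and Mir455 made up 83.4% of that sum in replicate 2 and 86.3% in replicate 1. Each value is a count per gene, so the arms of a hairpin were not separated. The gland was taken whole, and fewer cells of a type cannot be told apart from less RNA per cell. A read spans a whole mature miRNA, so counts were not divided by length, but capture and mapping differ between miRNAs and bear on any comparison of levels between genes.

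Mir132, the ACTH-responsive miRNA with the higher level of its pair, had 1439 counts or 415 CPM in replicate 2, with a 95% exact Poisson interval of 394 to 437, and 1435 counts or 474 CPM in replicate 1 (450.2 to 499.6). Its mean level was 445 ± 41.8 CPM (SD, n = 2), which placed it 121st by mean among all miRNA genes. Of the detected genes 66.8% had a lower mean, so with no treatment named by the labels Mir132 stood in the upper part of the detected range. Mir212, from the same intron, had 90 counts or 26.0 CPM in replicate 2 (20.9 to 31.9) and 95 counts or 31.4 CPM in replicate 1 (25.4 to 38.4). Its mean level was 28.7 ± 3.84 CPM (SD, n = 2). The intervals of its values in both libraries overlapped, and it ranked 248th.

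Mir132 exceeded Mir212 in both libraries, and by nearly the same factor. The count ratio of Mir132 to Mir212 was 16.0 in replicate 2 (95% exact conditional interval 12.9 to 20.01) and 15.1 in replicate 1 (12.3 to 18.8), with a mean of 15.5 ± 0.625 (SD, n = 2). This ratio needs no scaling to a library total. Its odds ratio between replicate 2 and replicate 1 was 1.06 (0.777 to 1.44), and Fisher's exact two-sided test gave p = 0.762. A change of the ratio was not detectable at this depth, and the width of the interval is set by the low counts of Mir212. Of the reads assigned to either hairpin, Mir132 held 94.1% in replicate 2 and 93.8% in replicate 1. Since both 3p miRNAs have the seed AACAGUC, their summed level is that of the pair of genes that can give this seed: 441 CPM in replicate 2 and 506 CPM in replicate 1, with a mean of 474 ± 45.6 CPM (SD, n = 2).

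The ratio within other neighbouring pairs was often less alike between the libraries. This comparison was chosen after values were seen and is a description. There were 119 pairs of detected miRNA genes that neighbour each other on the same strand within 10000 bases, pairs of 1 cluster sharing genes and all pairs sharing both libraries. The absolute log2 change of the ratio between replicates was 0.08 for Mir132 and Mir212, against a median of 0.43 over the other 118 pairs, whose values ran from 0.006 to 2.15. Of those 118, 12 changed less and 106 changed more. This place is not firm, since the 95% exact interval of the log2 change for Mir132 and Mir212, -0.36 to 0.53, includes the median of the other pairs, and the pairs differ in depth. A ratio of 15.5-fold between neighbours was not rare, since 36 of the 118 had a larger one and their median was 4.35.

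**Figure D2:**
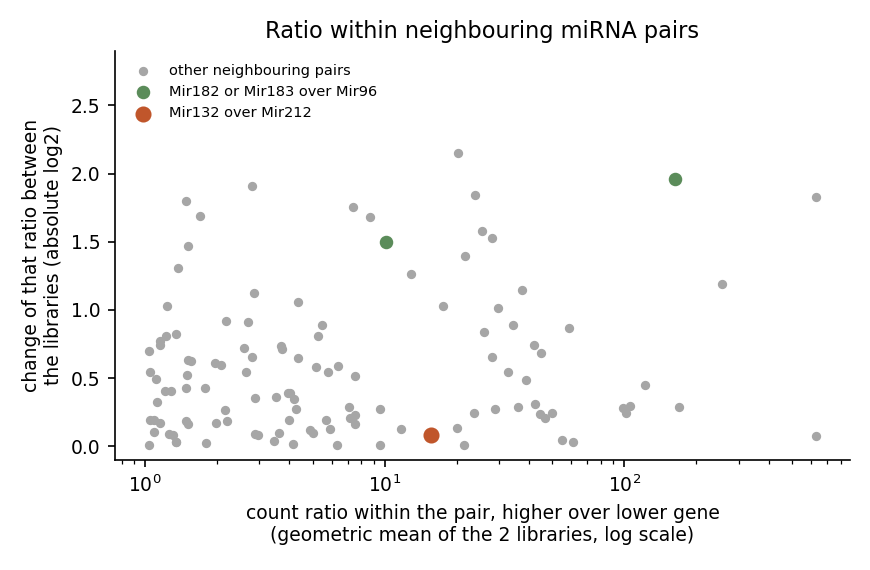
Each point is a pair of neighbouring detected miRNA genes, with the count ratio of the higher over the lower gene on the x axis (geometric mean of both libraries, log scale) and the absolute log2 change of that ratio between replicates on the y axis. Mir132 over Mir212, in orange, lies at a ratio of 15.5 and a change of 0.08, and Mir182 or Mir183 over Mir96, in green, at changes of 1.96 and 1.50.

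Mir320 had the highest level of the 5 genes. It had 5102 counts or 1473 CPM in replicate 2 (1432 to 1513) and 6667 counts or 2204 CPM in replicate 1 (2152 to 2258). The mean was 1838 ± 517 CPM (SD, n = 2), rank 57, with the widest spread of the 5 at a coefficient of variation of 28.1%. Mir455, reported as a regulator of the receptor SR-BI, had 3101 counts or 895 CPM in replicate 2 (864 to 927) and 3466 counts or 1146 CPM in replicate 1 (1108 to 1185). Its mean level was 1020 ± 177 CPM (SD, n = 2), rank 78. For both genes replicate 2 was the lower library, and the intervals did not overlap. Mir202, the gonadal miRNA, had 105 counts or 30.3 CPM in replicate 2 (24.8 to 36.7) and 76 counts or 25.1 CPM in replicate 1 (19.8 to 31.4), a mean of 27.7 ± 3.66 CPM (SD, n = 2) at rank 250. It was thus detected in both adrenal libraries at about the level of Mir212, and its intervals overlapped. Its neighbour mmu-mir-7686, 66 bases away on the same strand, had 4 counts in replicate 2 and 0 in replicate 1, where 3 counts would be 0.992 CPM.

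By mean level the order was Mir320, Mir455, Mir132, Mir212 and Mir202. Its 4 steps differed in how firm they were. Mir320 exceeded Mir455 1.65-fold in replicate 2 (1.57 to 1.72) and 1.92-fold in replicate 1 (1.85 to 2.00). Mir455 exceeded Mir132 2.15-fold in replicate 2 (2.02 to 2.30) and 2.42-fold in replicate 1 (2.27 to 2.57). For these steps and for that from Mir132 to Mir212, the values of neighbours in the order did not overlap over the libraries. Mir212 and Mir202 exchanged places: their ratio was 0.857 in replicate 2 (0.640 to 1.15) and 1.25 in replicate 1 (0.915 to 1.71), and both intervals include equal levels.

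**Figure D3:**
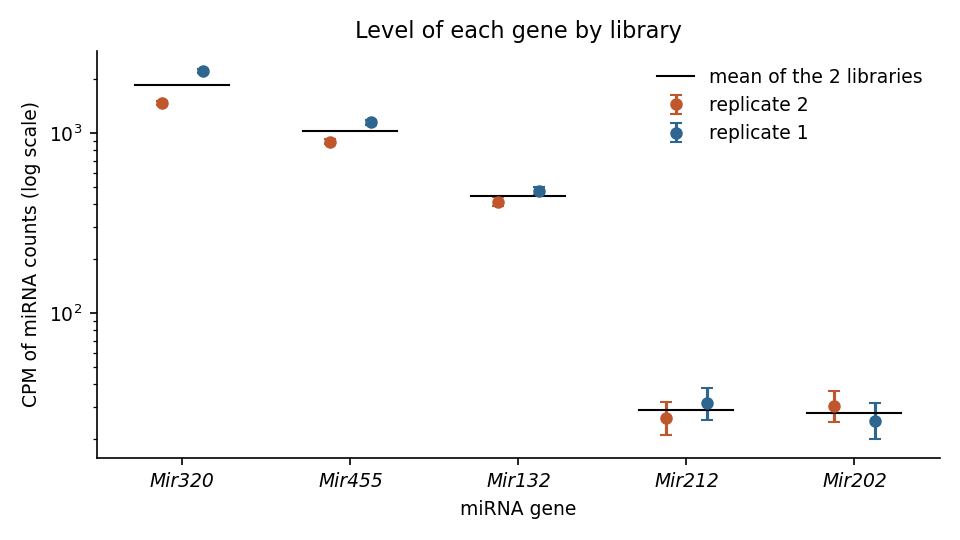
The y axis gives CPM of miRNA counts on a log scale for the 5 genes, with points for replicate 2 (orange) and replicate 1 (blue), bars for 95% exact Poisson intervals, which cover counting error only, and a line at the mean. Mir320, Mir455 and Mir132 stand apart from each other in both libraries, while Mir212 and Mir202 overlap near 28 CPM.

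Genes near a member in level were sought by the distance of log2(CPM + 1) over the 2 libraries, a measure that with so few libraries reflects level and little else. Nearest to Mir132 were Mir296 at 392 CPM in replicate 2 and 476 in replicate 1 (distance 0.08) and Mir671 at 444 and 472 (0.10). Nearest to Mir212 were Mir294 (distance 0.09) and Mir1198 (0.15), and nearest to Mir320 were Mir140 (0.09) and Mir15a (0.34). Mir423 (0.10) and Mir532 (0.21) came nearest to Mir455. Mir24-1 (0.02), itself among the steroid-linked genes described below, and Mir664 (0.15) came nearest to Mir202. The level of Mir24-1 may be too low, as described there.

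**Figure D4:**
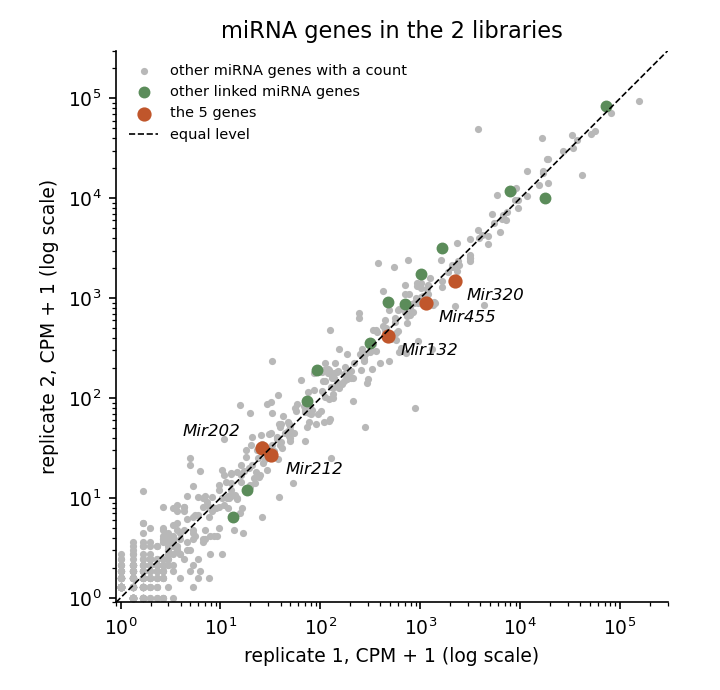
Each point is a miRNA gene with a count, with CPM + 1 in replicate 1 on the x axis and in replicate 2 on the y axis, both log scales, and a dashed line at equal level. The 5 genes (orange) span the range from about 28 to 1838 CPM in the mean and lie close to the line, with Mir320 the farthest below it among them.

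The libraries were compared gene by gene with a conditional binomial test (exact, two-sided), and p-values were adjusted by the Benjamini-Hochberg method over 413 genes with at least 10 counts. The test compares these libraries and no conditions. Of all tested genes 55.4% were called, 28.8% as higher and 26.6% as lower in replicate 2. Of the 5 members 3 were called, close to that share, and all 3 as lower in replicate 2. Mir320 was 1.50-fold lower in replicate 2 (interval 1.44 to 1.55; exact test, adjusted p = 2.04e-104). Mir455 was 1.28-fold lower (1.22 to 1.34; exact test, adjusted p = 6.63e-23) and Mir132 1.14-fold lower (1.06 to 1.23; exact test, adjusted p = 0.000969). Mir212 and Mir202 did not pass, with ratios of replicate 2 over replicate 1 of 0.827 (0.613 to 1.12; exact test, adjusted p = 0.302) and 1.21 (0.889 to 1.64; exact test, adjusted p = 0.331).

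These differences were of ordinary size for the data. The median log2 ratio was -0.27 over the 5 genes and 0.03 over all genes tested. The absolute log2 ratio of Mir132 was 0.19 and that of Mir320 0.58, while the median over 364 detected genes was 0.37, and 26.4% and 67.3% of detected genes had a smaller value than Mir132 and Mir320. The lower members moved with the summed markers of endothelium, red cells, white cells and smooth muscle, which were also lower in replicate 2. Within those sums Mir126a, Mir451a, Mir142 and Mir143 were lower there, Mir144 and Mir145a were nearly level (ratios 0.980 and 0.998), and Mir223 was 2.88-fold higher. The lower members moved against Mir122, which was 13.1-fold higher in replicate 2. The summed chromaffin cell markers were also higher there, at 34282 CPM against 31136 CPM in replicate 1. The part of these cell types in the result was not tested. With Mir122 left out of the totals, Mir320, Mir455 and Mir132 were still called lower, at ratios of 0.700, 0.819 and 0.917, the last with an exact test's adjusted p = 0.0402. With unstranded counts the calls over all genes split into 74 higher and 139 lower in replicate 2, against 119 and 110 with the counts used here, and the median log2 ratio over genes tested was -0.14. Relative to that median the log2 ratios were -0.58 for Mir320, -0.35 for Mir455 and -0.19 for Mir132.

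A list of 21 other miRNA genes linked to ACTH or steroid synthesis was measured beside them. Of these, 13 were detected and tested, 9 were called higher and 3 lower in replicate 2, and 1, Mir24-1, did not pass. The 12 called of 13 stand beside 55.4% of all tested genes, the 9 higher beside 28.8% and the 3 lower beside 26.6%. A call also depends on depth, and these shares include genes with few counts. With a filter of 100 or more counts, 197 of 276 tested genes were called, 107 higher and 90 lower in replicate 2. Of the list 10 were then called, 9 higher and 1 lower, while Mir24-1 did not pass and Mir96 and Mir383 fell below the filter. With the filter of 10 counts, the median log2 ratio of the 13 tested genes of the list was 0.33, against 0.03 over all genes tested. The list was chosen with earlier results of these data known, and its counts describe these libraries.

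Among genes reported to rise with ACTH in the rat adrenal, as Mir132 and Mir212 do, were Mir182, Mir183 and Mir96, which form a cluster. Mir182 had 1751 CPM in replicate 2 and 1006 CPM in replicate 1, a 1.74-fold difference (1.67 to 1.82). Mir183 had 92.9 CPM in replicate 2 and 73.4 CPM in replicate 1, 1.27-fold higher (1.06 to 1.51). Mir96 had 5.48 and 12.2 CPM, 2.23-fold lower in replicate 2 (1.25 to 4.11), from 19 and 37 counts. The genes of that cluster were thus called in opposite directions. Of Mir132 and Mir212, Mir132 alone was called, and both had lower values in replicate 2.

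Of the genes reported to fall with ACTH, 3 were detected and all were called higher in replicate 2. Mir214 had 881 CPM in replicate 2 and 703 CPM in replicate 1, Mir503 356 and 312 CPM, and Mir27a 914 and 474 CPM. Mir27a shares a 20-base stretch with Mir27b, and reads with several mapping places were not assigned, so its level may be too low. The 8 Mir466b genes, copies of a miRNA reported to act on StAR, had no count in either library. The upper limit that a count of 0 allows, 3 counts, is 0.866 CPM in replicate 2 and 0.992 CPM in replicate 1. Reads of near-identical copies have several mapping places, so these zeros do not show that the miRNA was absent.

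The remaining genes bear on single steps of steroid synthesis. Mir125a, which has been reported to act on SR-BI as Mir455 has, was at 3191 CPM in replicate 2 and 1654 CPM in replicate 1, 1.93-fold higher (1.87 to 1.99), while Mir455 was lower there. Both miR-10b and miR-24 have been reported to lower CYP11B1 and CYP11B2, the enzymes that finish cortisol and aldosterone, in human adrenocortical cells. Mir10b was at 10131 CPM in replicate 2 and 17870 CPM in replicate 1, 1.76-fold lower (1.74 to 1.79). Mir24-2 was at 188 CPM in replicate 2 and 91.2 CPM in replicate 1, and Mir24-1 at 30.6 and 24.8 CPM. These 2 genes share a 20-base stretch, and reads with several mapping places were not assigned, so both levels may be too low. Mir21a, linked to aldosterone secretion in human adrenocortical cells, was at 11784 CPM in replicate 2 and 7910 CPM in replicate 1, 1.49-fold higher (1.47 to 1.51). Mir383, linked to granulosa cell estradiol, was at 11.0 CPM in replicate 2 and 17.5 CPM in replicate 1, with an exact test's adjusted p = 0.0495. With Mir122 left out of the totals it was not called (exact test, adjusted p = 0.0791). Mir378a, linked to aromatase in granulosa cells, was at 83205 CPM in replicate 2 and 71827 CPM in replicate 1, the second highest mean of all genes.

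**Figure D5:**
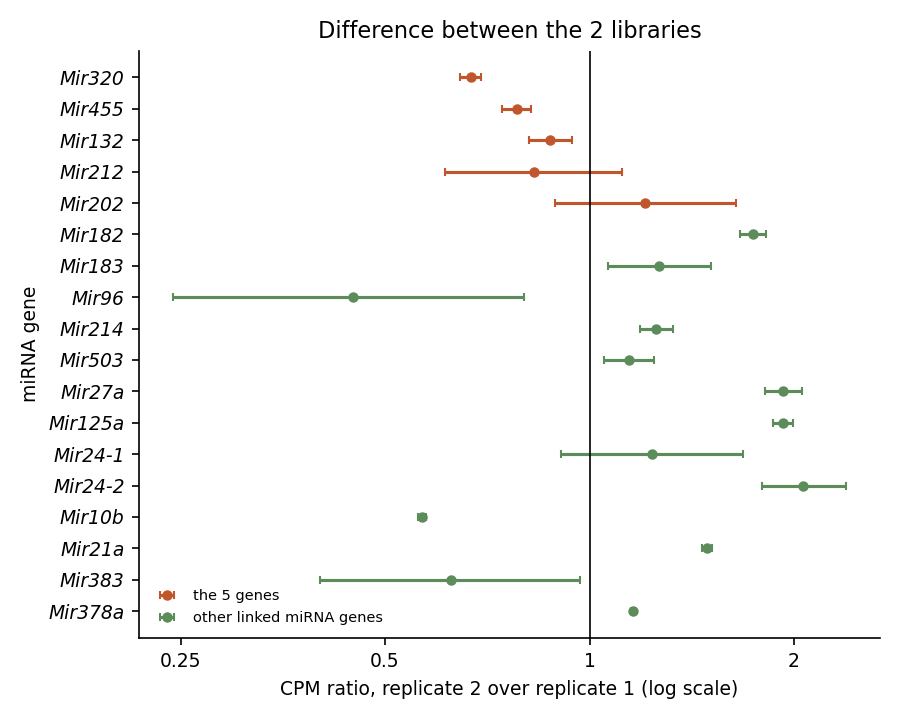
The x axis gives the CPM ratio of replicate 2 over replicate 1 on a log scale with 95% exact conditional intervals, for the 5 genes (orange) and the 13 detected genes of the other list (green). Mir320, Mir455 and Mir132 lie below 1 with their intervals, the intervals of Mir212, Mir202 and Mir24-1 include 1, and 9 of the green genes lie above 1 with theirs.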

How the data were processed

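The deposited files hold raw read counts per miRNA gene, 1 file per library, and per the deposited notes they use mm10 with annotation GENCODE M21. The aligner and counter remain not given in the sources used here, nor are their settings. The authors' files have 3 count columns (unstranded, strand of the gene, opposite strand, as read from the values) and 4 summary rows, which name no gene, held 59.1% of reads in replicate 2 and 57.8% in replicate 1, and stayed out of totals and tests. Multimapping reads, 29.4% and 27.5%, are in no gene. On the strand of the gene the members had 9837 counts in replicate 2 and 11739 in replicate 1, on the opposite strand 0 and 1.

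Counts were scaled to CPM of all miRNA genes. Intervals at 95% and p-values cover counting error only, as PCR copies are not independent molecules. Levels were not tested, since an exact sign-flip test over 2 libraries allows no p under 0.5. Libraries were compared by an exact conditional binomial test, called at an adjusted p of 0.05 and tested on simulated data; their chi-square of 796 per degree of freedom showed that they are not 1 library deposited again. Named genes were the 5 members, the detected genes of the other list, the 2 genes nearest in level to each member and miRNA neighbours within 10000 bases. Members and lists were chosen with earlier results of these data known. Alternatives were unstranded counts, other totals, edgeR's TMM, DESeq2's size factors, other count filters and each library alone. Sequences are from RefSeq, in which none of the 4 members with an entry shares a 20-base stretch with another gene. The tools used were edgeR 4.0.16 with DESeq2 1.42.0 in R 4.3.3, then SciPy 1.17.1 with statsmodels 0.14.6, pandas 2.3.3 and matplotlib 3.10.9 under Python 3.11.15 with NumPy 2.4.6.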

Additional observations from a re-analysis of the deposited data

Results flagged for a closer look

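In the column of opposite-strand counts, which no comparison uses, Mir24-1 had 74 counts in replicate 2 and 78 in replicate 1, above the limit of 3 counts. Mir3074-1 lies on the opposite strand of that locus and has the same 74 and 78 counts on its own strand. No sample could be tested as lying far from the others, as there are 2.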

How the results depend on the processing

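The summed level of the 5 genes was 4607 CPM with unstranded counts and 1399 when scaled to 1000000 of all reads in the file, against 3360 ± 737 CPM (SD, n = 2), because those settings change the total that counts are divided by. With edgeR's TMM, DESeq2's size factors and totals without Mir122 it moved by less than the SD. Each library alone kept between 3 and 4 of the 4 steps of the order. With unstranded counts 74 genes were called higher in replicate 2; the cause was not tested. With a filter of 100 or more counts 1 gene of the other list was called lower in replicate 2 instead of 3, since Mir96 and Mir383 were then not tested, and with totals without Mir122 it was 2, since Mir383 was then not called. The 3 calls among the members held under all 6 alternatives run, with ratios of 0.608 to 0.700 for Mir320, 0.711 to 0.819 for Mir455 and 0.797 to 0.917 for Mir132. Counts limit the ratios of Mir212 and Mir202. No paired analysis was possible because there is 1 group.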

Other observations

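Genes that can give a miRNA with the bases 2 to 7 of miR-202-3p were far more abundant than Mir202. The RefSeq table pairs 14 genes with these miRNAs, of which 12 were detected, most of them let-7 genes, and they summed to 196720 CPM in replicate 2 and 202343 CPM in replicate 1, or 19.7% and 20.2% of counts. Mirlet7a-2, by its name a gene of let-7a, was at 184 CPM in replicate 2 and 150 CPM in replicate 1. It is not among the 14, although let-7a-5p has these bases, so the 14 may be incomplete. Reads with several mapping places were not assigned, so the sum may be too low. Mir7j, the gene of let-7j, whose full seed is that of miR-202-3p, was at 56.3 CPM in replicate 2 and 75.7 CPM in replicate 1, against 30.3 and 25.1 CPM for Mir202. The sole other gene with the seed of miR-455-5p, Mir5129, was at 1.44 and 1.98 CPM, below detection. Counts are per hairpin, so which arm was read is not known here.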
